A study of Rattus norvegicus with 15 samples.

Results

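Proteases that cut the extracellular matrix and the inhibitors that hold them in check were followed in the walls of 2 rat vessels around birth, the ductus arteriosus and the aorta. Members were chosen by gene symbol, with earlier results of these data known. They were the matrix metalloproteinases (Mmp), their tissue inhibitors (Timp), the ADAM and ADAMTS metalloproteases other than Adamts1, the serpins and the cathepsins (Cts). The choice also took in the plasminogen activators Plat and Plau with the receptor Plaur. This gave 97 probe sets of 69 genes, of 26202 probe sets and 10969 named genes on the chips. Their names follow an annotation in which 3 ADAMTS-like genes and serpins with a letter after the number, such as Serpina3n, fall outside the choice. Adamts1 has a name of the chosen kind and was left out by name. Its values are given with the neighbouring genes below. A probe set, shared by Ctsml1 and Ctsq, was left out as assigned to several genes.

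Expression was measured by Affymetrix rat arrays in 5 states, each hybridised once to every one of 3 chips named A, B and C. The states were the ductus of newborns 3 h after vaginal delivery (newborn ductus), the ductus of day 19 fetuses whose dams breathed 100% oxygen for 3 h before caesarean section (oxygen ductus), the ductus of day 19 fetuses of normoxic dams (fetal ductus), the aorta, arch and thoracic part, of newborns 3 h after vaginal delivery (newborn aorta), and the aorta of day 19 fetuses of normoxic dams (fetal aorta). The labels name no strain, sex, genotype or number of animals per array, and they describe vessels freed of adhering tissue in medium gassed with 12.5% oxygen for newborns and 2.5% for fetuses. No state had a replicate array, so a ratio of states compares 2 arrays, and their number limits the precision. The label of the newborn aorta on chip A counts its hours from coitus in the title and names newborns in the description, and it was taken as newborn. Newborn and fetal groups also differ in age, mode of delivery and gas during dissection, which cannot be told apart here.

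Matrix metalloproteinases are secreted or membrane-bound zinc enzymes that are made as inactive precursors and cut collagens, elastin and proteoglycans, and TIMPs bind their active sites. ADAMs release growth factors and receptors from the cell surface, ADAMTS enzymes process procollagen and proteoglycans, plasminogen activators turn plasminogen into plasmin, serpins trap serine proteases, and cathepsins act mainly in lysosomes. In the ductus the wall is rebuilt around birth, with cushions of intima that thicken into the lumen and, after birth, closure and fibrosis, so turnover of matrix is a usual part of descriptions of this vessel.

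A signal is the brightness of a probe set on a linear scale that had been scaled to a common mean on every array, and signals of different probe sets are not compared as amounts. The floor was the median of all signals of a chip, 149.8 for A, 242 for B and 243 for C, and lower signals were set to it before a ratio was formed, so that a fold with one side under the floor is written as at least that fold. Probe sets with a geometric mean over the 5 arrays at or above the floor were compared, 12912 of all and 53 of the 97 member probe sets. The brightest probe set stands for a gene, and 35 of the 69 genes passed at it. The part of the signals that vessel and stage do not explain additively put the noise of a log2 ratio at 0.21 to 0.37 (SD), more or less by signal and chip. This noise came from the 4 arrays of a chip without oxygen, so it was not estimated for the oxygen ductus. Differences of at least 1.5-fold, 0.58 on the log2 scale, were counted. That fold was a fixed setting, not derived from the noise, and unchanged probe sets can pass it. Counts are therefore given beside the share of all probe sets.

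The labelled tissue was checked against markers of the vessel wall. All 7 smooth muscle and all 8 fibroblast markers on the chips passed the filter, and 7 of 9 endothelial ones. The summed signal of the smooth muscle markers was 96270 in newborn, 66070 in oxygen and 66630 in fetal ductus, and 60360 in newborn and 45380 in fetal aorta. Markers of other tissues differed between the states. The 10 heart markers summed to 7561 in newborn, 19630 in oxygen and 24400 in fetal ductus, and 13480 in newborn and 9858 in fetal aorta. The 9 fat markers summed to 1676 in newborn, 1147 in oxygen and 1538 in fetal ductus, and 12630 in newborn and 1290 in fetal aorta. The 13 macrophage markers summed to 5237 in newborn, 4546 in oxygen and 5272 in fetal ductus, and 5646 in newborn and 7797 in fetal aorta, and the 8 mast cell markers to 966 in newborn, 398 in oxygen and 544.3 in fetal ductus, and 1756 in newborn and 1829 in fetal aorta. In bulk vessel RNA, fewer cells of a type and less RNA per cell cannot be told apart.

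**Figure D1:**
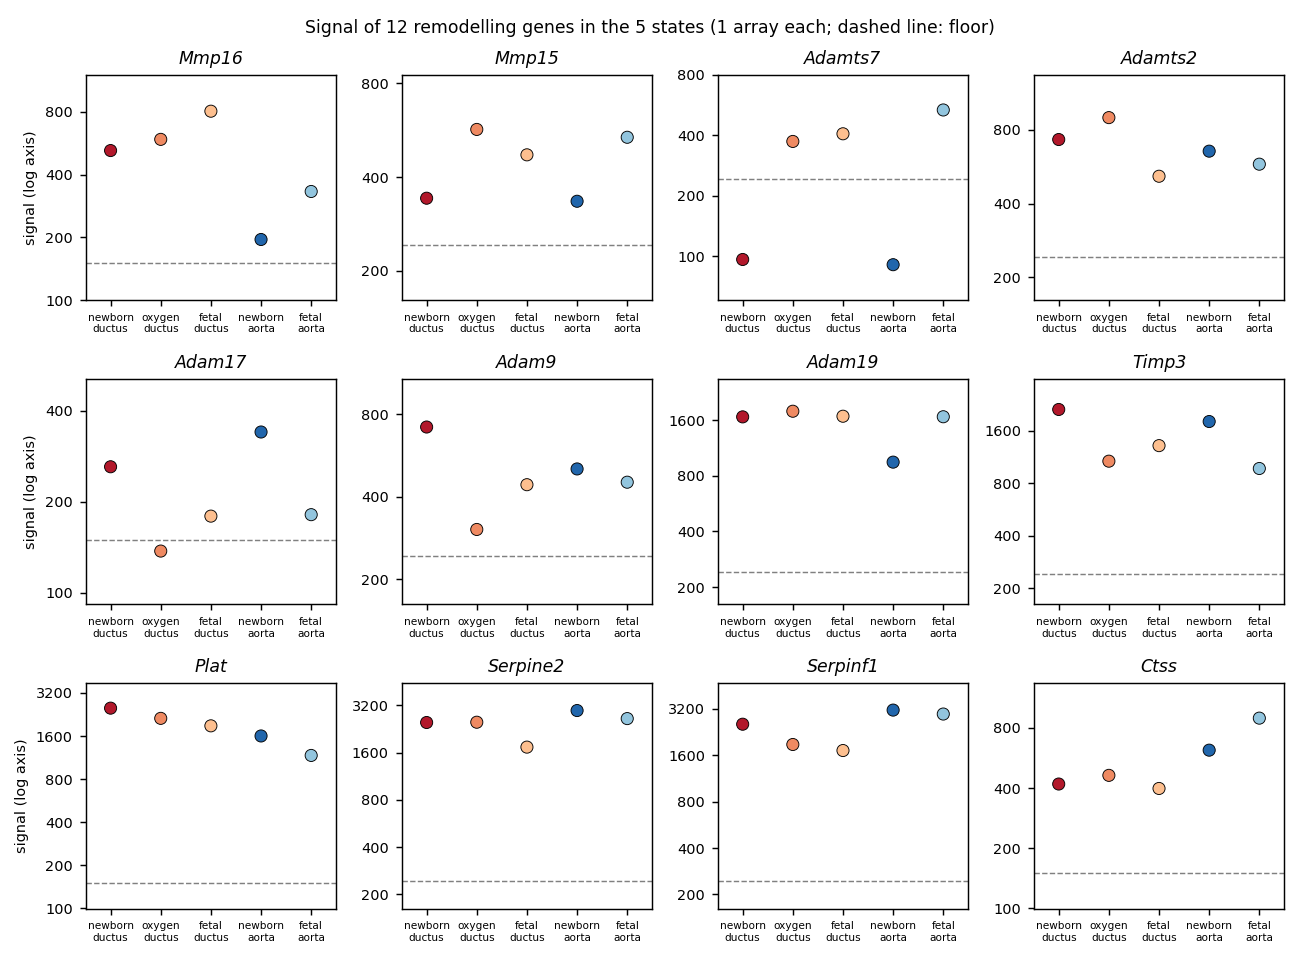
Signal of 12 member genes at their brightest probe set (y axis, log scale) in the 5 states (x axis), 1 point per array, with the floor of the chip as a dashed line. Adamts7 lay under the floor in both newborn vessels and above it in the 3 fetal states. Mmp16 and Plat were higher in each ductus state than in each aorta state. Timp3 was highest in the newborn ductus at this probe set, but not at every other one.

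Across the members, differences between states were mostly small. The limma fit of vessel and stage over all probe sets, which uses the interaction of the 2 factors as its error, called 0 of 53 member probe sets higher and 0 lower with birth at an adjusted p under 0.05, where 1.28% and 1.09% of all probe sets were called. For ductus against aorta it likewise called 0 higher and 0 lower, against 0.101% and 0.0232% of all. Adamts1, which was left out of the members by name, was called higher in ductus than in aorta. At an unadjusted p under 0.05 there were 8 member probe sets higher and 3 lower with birth (8.57% and 10.4% of all probe sets), and 2 higher and 9 lower in ductus than in aorta (4.18% and 3.66% of all). All values below are therefore descriptions of single arrays.

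Membrane-type metalloproteinases, which sit on the cell surface, held the clearest difference between the vessels. Mmp16 (MT3-MMP), an activator of the Mmp2 precursor, had signals of 522 in newborn, 591 in oxygen and 807 in fetal ductus, and 195 in newborn and 332 in fetal aorta. Its 3 ductus values lay above both aorta values. Mmp16 was 2.67-fold higher in newborn ductus than in newborn aorta and 2.43-fold higher in fetal ductus than in fetal aorta, and the limma vessel effect was 1.35 (SE 0.20, adjusted p = 0.085). The adjusted p ran from 0.0084 with an intensity trend in the variance prior, the single setting of 7 with a call, to 0.36 with quantile normalization. It was also lower in both newborn vessels, 1.54-fold lower in newborn than in fetal ductus and 1.70-fold lower in newborn than in fetal aorta. The summed smooth muscle markers, given above, were higher in ductus than in aorta at both stages, and their part in the Mmp16 difference was not tested.

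Mmp15 (MT2-MMP) differed by stage and hardly by vessel. Signals of this gene were 342 in newborn, 569 in oxygen and 471 in fetal ductus, and 334 in newborn and 537 in fetal aorta. Both newborn vessels lay under all 3 fetal states, 1.38-fold lower in newborn than in fetal ductus, 1.66-fold lower in newborn than in oxygen ductus and 1.60-fold lower in newborn than in fetal aorta. Its limma birth effect was -0.57 (SE 0.23, adjusted p = 0.19). Mmp14 (MT1-MMP), a collagenase of the cell surface and the main activator of the Mmp2 precursor, had 6174 in newborn, 4834 in oxygen and 6957 in fetal ductus, and 4563 in newborn and 6405 in fetal aorta. On chip A the newborn aorta and the oxygen ductus were lowest, at log2 ratios of -0.49 to fetal aorta and -0.53 to fetal ductus. Another Mmp14 probe set on chip C gave 0.22 and 0.04 for the same ratios, without the differences of chip A. Gelatinase A, Mmp2, which cuts basement membrane collagen, had 1802 in newborn, 2264 in oxygen and 1797 in fetal ductus, and 1368 in newborn and 1489 in fetal aorta, with ductus slightly above aorta at both stages (log2 ratios 0.40 in newborns and 0.27 in fetuses).

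The secreted collagenases, stromelysins and gelatinase B stayed under the floor or close to it. Mmp9 (gelatinase B) had 52.0 in newborn, 13.7 in oxygen and 17.2 in fetal ductus, and 19.9 in newborn and 20.1 in fetal aorta, all under the floor, and Mmp3, Mmp7, Mmp8, Mmp10 and Mmp13 also stayed under it in every state. Mmp12, the macrophage elastase, passed the floor in the newborn aorta alone, with 158 there, against 65.1 in fetal aorta and 53.4 to 65.9 in the ductus. Mmp11, a stromelysin, had 114 in newborn, 147 in oxygen and 123 in fetal ductus, and 172 in newborn and 154 in fetal aorta, above the floor in the aorta alone. Mmp17, Mmp23 and Mmp24 passed the filter and stayed within 1.5-fold at their brightest probe sets. For Mmp17, a dimmer probe set, picked out after its values were seen, was 1.52-fold higher in newborn than in fetal ductus, while the brightest one gave a log2 ratio of -0.08.

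Among ADAMs, sheddases of the cell surface, Adam17 was higher in both newborn vessels and Adam9 in the newborn ductus. Adam17, which releases tumour necrosis factor and ligands of the epidermal growth factor receptor, had signals of 261 in newborn, 138 in oxygen and 179 in fetal ductus, and 340.3 in newborn and 181 in fetal aorta. Both newborn values exceeded all fetal ones. The folds were 1.46-fold higher in newborn than in fetal ductus, 1.88-fold higher in newborn than in fetal aorta and at least 1.74-fold higher in newborn than in oxygen ductus, with a limma birth effect of 0.72 (SE 0.21, adjusted p = 0.1). Adam9, another sheddase, had 718 in newborn, 304 in oxygen and 442 in fetal ductus, and 505 in newborn and 452 in fetal aorta. Here the newborn ductus was highest and the oxygen ductus lowest, 1.62-fold higher in newborn and 1.46-fold lower in oxygen than in fetal ductus, which makes it 2.36-fold higher in newborn than in oxygen ductus, against a log2 ratio of 0.16 for birth in the aorta.

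Adam19 and Adam11 departed in the newborn aorta. Adam19 (meltrin beta), needed for heart valve and septum formation in the mouse, had 1671 in newborn, 1793 in oxygen and 1684 in fetal ductus, and 949.9 in newborn and 1673 in fetal aorta. The 4 states beside it lay between 1671 and 1793, and the newborn aorta was 1.76-fold lower than fetal aorta, so that newborn ductus was 1.76-fold higher than newborn aorta. Adam11, an ADAM without catalytic zinc site that is best known in the nervous system, had 407 in newborn, 434 in oxygen and 486 in fetal ductus, and 815 in newborn and 528 in fetal aorta. It went the other way, 1.54-fold higher in newborn than in fetal aorta and 2.00-fold lower in newborn ductus than in newborn aorta. Fat markers were high in that same newborn aorta sample, and their part in these and the other differences of the newborn aorta was not tested. Adam8 stayed within 1.5-fold, and its 2 probe sets had opposite signs for birth in the aorta.

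Adamts7, which cuts the cartilage oligomeric matrix protein, was lower in both newborn vessels than in every fetal state. It did not pass the filter, its geometric mean being under the floor of chip C, and was singled out after its values were seen. Adamts7 had 96.6 in newborn, 373 in oxygen and 407 in fetal ductus, and 91.0 in newborn and 534 in fetal aorta. Both newborn signals were under the floor and all 3 fetal ones above it, so it was at least 1.67-fold lower in newborn than in fetal ductus, at least 1.53-fold lower in newborn than in oxygen ductus and at least 2.20-fold lower in newborn than in fetal aorta. Where another floor or filter let it into the limma fit, both newborn values were still set to the floor, so no fitted effect or p is given for it. Adamts2, the enzyme that removes the amino-terminal propeptide of fibrillar procollagens, was the member at least 1.5-fold higher under oxygen, with 731 in newborn, 898 in oxygen and 517 in fetal ductus, and 655 in newborn and 579 in fetal aorta. Oxygen ductus was 1.74-fold higher than fetal ductus, and newborn ductus had a log2 ratio of 0.50 to the same fetal array.

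The promoters of Adamts7 and Timp3 are shown because Adamts7 was lower in both newborn vessels and Timp3 was higher in both at its brightest probe set, though its probe sets disagreed in the ductus. They come from RefSeq, build GRCr8, and run from 250 bases before the annotated start of the gene through the first 50 bases after it, written 5′ to 3′ on the strand of the gene. Capitals mark matches, on either strand, to a TATA box (TATAAA), a GC box (GGGCGG), an AP-1 site (TGANTCA) and a glucocorticoid receptor half-site (AGAACA).
Adamts7, chr8:99584279-99584578, plus strand: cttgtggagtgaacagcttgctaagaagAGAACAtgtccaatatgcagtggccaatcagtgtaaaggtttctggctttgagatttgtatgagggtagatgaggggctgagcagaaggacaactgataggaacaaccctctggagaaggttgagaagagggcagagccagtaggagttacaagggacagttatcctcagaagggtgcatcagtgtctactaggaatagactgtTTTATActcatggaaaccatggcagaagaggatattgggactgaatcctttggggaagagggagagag
Timp3, chr7:19459509-19459808, minus strand: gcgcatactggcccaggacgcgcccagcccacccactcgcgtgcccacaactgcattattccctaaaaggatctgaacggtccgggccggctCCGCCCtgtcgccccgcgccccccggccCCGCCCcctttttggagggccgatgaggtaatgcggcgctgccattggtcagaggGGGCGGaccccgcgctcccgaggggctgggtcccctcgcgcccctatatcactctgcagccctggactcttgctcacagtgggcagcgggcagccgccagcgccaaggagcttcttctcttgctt
The Adamts7 window held 1 TATA box match and 1 half-site match, and 0 GC boxes, with 46.7% G and C, whereas the Timp3 window held 3 GC boxes and 0 TATA box or half-site matches, with 68.7% G and C. Of 33469 promoter windows of this length, 14.2% hold the TATA box letters, 33.1% the GC box, 7.33% the AP-1 letters, which neither window holds, and 20.7% the half-site. None of the marked matches overlap. A match describes letters only and shows no binding.

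Timp3 stood out among the inhibitors. It is the TIMP that binds to the matrix, and it also inhibits Adam17 and several ADAMTS enzymes. At its brightest probe set, on chip C, Timp3 had 2116 in newborn, 1070.3 in oxygen and 1314 in fetal ductus, and 1806 in newborn and 972 in fetal aorta. Both newborn vessels lay above all 3 fetal states, 1.61-fold higher in newborn than in fetal ductus, 1.98-fold higher in newborn than in oxygen ductus and 1.86-fold higher in newborn than in fetal aorta. The limma birth effect was 0.79 (SE 0.19, adjusted p = 0.082), with adjusted p between 0.043 and 0.13 over 7 settings, and past the threshold with quantile normalization alone.

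Timp3 had 5 probe sets that passed the filter, on all 3 chip types, and they agreed on the aorta more than on the ductus. All 5 were higher in newborn than in fetal aorta (log2 ratios 0.70 to 1.71). They were also all higher in newborn than in oxygen ductus (0.60 to 1.15, both ends with oxygen ductus set to the floor). In oxygen against fetal ductus all 5 were lower (-1.04 to -0.30, the lowest with oxygen ductus set to the floor). For newborn against fetal ductus, 3 were positive and 2 negative, between -0.44 and 0.69, so a birth difference in the ductus rests on the probe set read. Newborn ductus against newborn aorta was likewise split, with 2 positive and 3 negative, between -0.68 and 0.23. All 5 were higher in fetal ductus than in fetal aorta (0.31 to 1.04, the highest with fetal aorta set to the floor). The widest aortic ratio, of a chip B probe set with 548 in newborn, 315 in oxygen and 401 in fetal ductus, and 876 in newborn and 268 in fetal aorta, had a limma birth effect of 1.08 (SE 0.28, adjusted p = 0.052), with adjusted p from 0.031 to 0.081 over 6 settings. Probe sets of a gene read the same RNA sample and are not replicates of a state. Of all probe sets, 8.83% were at least 1.5-fold lower in oxygen than in fetal ductus and 3.94% higher.

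**Figure D2:**
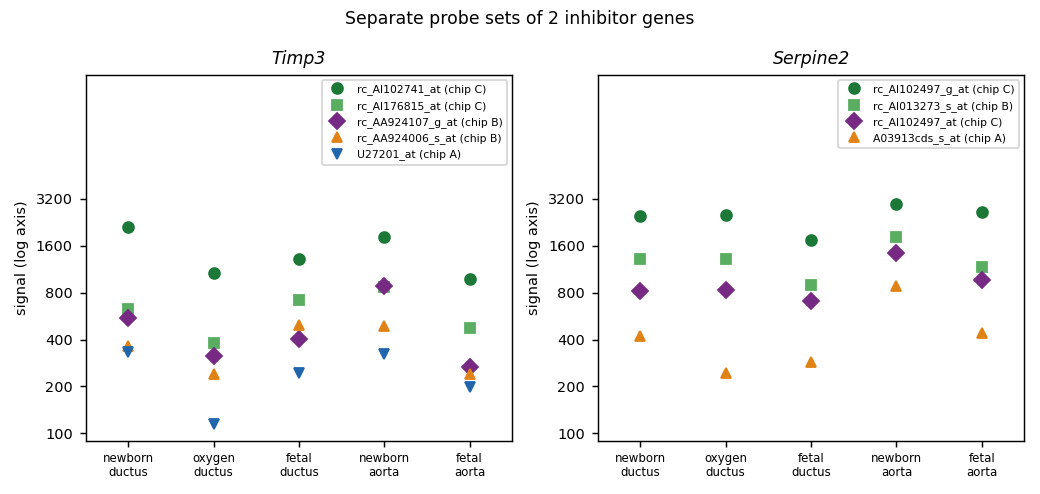
Signals (y axis, log scale) of the 5 Timp3 and the 4 Serpine2 probe sets that passed the filter, in the 5 states (x axis), 1 point per array, coloured by probe set. Every Timp3 probe set was higher in newborn than in fetal aorta. Every Serpine2 probe set was lower in newborn ductus than in newborn aorta and lower in fetal ductus than in fetal aorta.

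The remaining TIMPs varied little. Timp1, a secreted and inducible inhibitor, had 2941 in newborn, 4039.6 in oxygen and 3420.5 in fetal ductus, and 3816 in newborn and 4103 in fetal aorta at its brightest probe set, and its 3 passing probe sets kept within log2 ratios of -0.46 and 0.47 in all comparisons. Timp2, which inhibits Mmp2 and also helps Mmp14 to activate it, had 3306 in newborn, 3848 in oxygen and 2889 in fetal ductus, and 3769.7 in newborn and 2982 in fetal aorta, highest in oxygen ductus and newborn aorta. Timp4, the TIMP most abundant in heart, had 301 in newborn, 226 in oxygen and 202 in fetal ductus, and 412 in newborn and 333 in fetal aorta. Its fetal and oxygen ductus values were under the floor and its aorta values above it, at least 1.37-fold lower in fetal ductus than in fetal aorta and 1.37-fold lower in newborn ductus than in newborn aorta, with a vessel effect, fetal ductus being set to the floor, of -0.45 (SE 0.19, limma adjusted p = 0.6).

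In the plasminogen system, Plat was higher and Plaur lower in ductus than in aorta at both stages. Plat, the tissue plasminogen activator, known from endothelium, had 2506 in newborn, 2127 in oxygen and 1886 in fetal ductus, and 1602 in newborn and 1172 in fetal aorta. The ductus was higher than the aorta at both stages, 1.56-fold higher in newborns and 1.61-fold higher in fetuses, with all 3 ductus values above both aorta values, and the limma vessel effect was 0.67 (SE 0.19, adjusted p = 0.34). The endothelial markers summed to 8618 in newborn, 6671 in oxygen and 6284 in fetal ductus, and 9710 in newborn and 6651 in fetal aorta, and the smooth muscle sums, given above, were higher in ductus than in aorta at both stages. The part of either in the Plat difference was not tested. Plaur, the urokinase receptor, had 394 in newborn, 297 in oxygen and 315 in fetal ductus, and 547 in newborn and 482 in fetal aorta. Newborn ductus was 1.39-fold lower than newborn aorta and fetal ductus 1.53-fold lower than fetal aorta (vessel effect -0.54, SE 0.20, limma adjusted p = 0.5). Plau itself, the urokinase activator, stayed under the floor, with 114 in newborn, 80.4 in oxygen and 75.7 in fetal ductus, and 73.2 in newborn and 95.1 in fetal aorta.

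Serpine2 (protease nexin-1), an inhibitor of thrombin and of plasminogen activators, was lower in newborn and fetal ductus than in the aorta of the same stage. Its brightest probe set gave 2490.1 in newborn, 2501 in oxygen and 1735 in fetal ductus, and 2969 in newborn and 2638 in fetal aorta. All 4 passing probe sets were lower in newborn ductus than in newborn aorta (log2 ratios -1.08 to -0.25) and all 4 lower in fetal ductus than in fetal aorta (-0.63 to -0.37). They were all higher in newborn than in fetal vessels too, by 0.21 to 0.55 in the ductus and 0.17 to 1.00 in the aorta. In oxygen against fetal ductus 3 were higher and 1 lower (-0.23 to 0.55). A chip B probe set had 1313 in oxygen ductus, above its 1160 in fetal aorta. The 4 vessel effects ran from -0.85 to -0.43 and their limma adjusted p from 0.24 to 0.68.

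Serpinf1 and Serpina1 were also lower in fetal ductus than in fetal aorta. Serpinf1 (pigment epithelium-derived factor), a serpin that restrains vessel growth and does not inhibit proteases, had 2539 in newborn, 1876 in oxygen and 1714 in fetal ductus, and 3135 in newborn and 2956 in fetal aorta, 1.72-fold lower in fetal ductus than in fetal aorta and at a log2 ratio of -0.30 in newborns. Serpina1 (alpha-1 antitrypsin), an inhibitor of neutrophil elastase made chiefly by liver, had 234 in newborn, 168 in oxygen and 230.2 in fetal ductus, and 290.4 in newborn and 511 in fetal aorta. The fetal aorta was the high sample, with fetal ductus 2.22-fold lower and newborn aorta 1.76-fold lower than it. The dimmer Serpina1 probe sets stayed under the floor in every state, with signals from 3.9 to 22.0. The 11 liver and plasma markers summed to 1143 in newborn, 956.9 in oxygen and 1415 in fetal ductus, and 1207 in newborn and 2864 in fetal aorta, so they were highest in the same sample, and their part in the Serpina1 difference was not tested.

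Serpinb9, an inhibitor of granzyme B inside cells, had 518 in newborn, 489 in oxygen and 444 in fetal ductus, and 299 in newborn and 528 in fetal aorta. Newborn aorta was lowest, 1.76-fold lower than fetal aorta, and newborn ductus was 1.73-fold higher than newborn aorta. A dimmer Serpinb9 probe set gave 1.68-fold higher for that last ratio, but only 1.23-fold lower for newborn against fetal aorta. Serpinh1 (Hsp47), the collagen chaperone of the endoplasmic reticulum, had 7679 in newborn, 8185 in oxygen and 6684 in fetal ductus, and 7973 in newborn and 7366 in fetal aorta, and kept its log2 ratios between -0.14 and 0.29. Serpinf2, the plasmin inhibitor, stayed within 1.5-fold. The other 12 serpin genes did not pass, and Serping1 alone of them reached the floor in any state.

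Cathepsins were mostly even, apart from lower signals of a few in the fetal ductus. Ctss, an elastin-cutting cathepsin of macrophages and other antigen-presenting cells, had 419 in newborn, 463 in oxygen and 398 in fetal ductus, and 619 in newborn and 895 in fetal aorta. Both aorta values exceeded all 3 ductus values, with fetal ductus 2.25-fold lower than fetal aorta and newborn ductus 1.48-fold lower than newborn aorta. Its limma vessel effect was -0.87 (SE 0.22, adjusted p = 0.26). Of 10 macrophage markers that passed the filter, 5 were at least 1.5-fold lower and 1 higher in fetal ductus than in fetal aorta (median log2 ratio -0.63), and their part in the Ctss difference was not tested. Ctsk, a cathepsin that degrades collagen, had 1124 in newborn, 1099.6 in oxygen and 779 in fetal ductus, and 863 in newborn and 1338 in fetal aorta. It was lowest in fetal ductus, 1.72-fold lower than fetal aorta, and with birth it had log2 ratios of opposite sign, 0.53 in the ductus and -0.63 in the aorta.

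Ctsa, the lysosomal carboxypeptidase that protects beta-galactosidase, had 1970.3 in newborn, 1456 in oxygen and 1491 in fetal ductus, and 1973 in newborn and 1270.2 in fetal aorta, 1.55-fold higher in newborn than in fetal aorta and 1.32-fold higher in newborn than in fetal ductus. Ctsh, an aminopeptidase, had 624 in newborn, 445 in oxygen and 407 in fetal ductus, and 593 in newborn and 497 in fetal aorta, 1.53-fold higher in newborn than in fetal ductus, and its other probe set gave 1.70-fold higher. Ctsb, Ctsd and Ctsl, general proteases of the lysosome, stayed within 1.5-fold in every comparison. Ctsb had 2755 in newborn, 2355 in oxygen and 2076 in fetal ductus, and 2474 in newborn and 2353 in fetal aorta. The aspartic protease Ctsd had 1573 in newborn, 1324 in oxygen and 1513 in fetal ductus, and 1819 in newborn and 1768 in fetal aorta, and Ctsl, a cysteine protease, 1935 in newborn, 2058 in oxygen and 1713 in fetal ductus, and 2628 in newborn and 1995 in fetal aorta. Ctsc, Ctsf and Ctsz stayed within 1.5-fold at their brightest probe sets, and the paired probe sets of Ctsz disagreed on birth in the ductus.

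Counts of member probe sets were set beside the share of all probe sets that differed as much. In newborn against fetal ductus, 5 of 53 member probe sets were at least 1.5-fold higher (8.65% of all probe sets) and 1, that of Mmp16, lower (9.74% of all). The 5 were of Timp3, Adam9, Mmp17 and, by both its probe sets, Ctsh. In newborn against fetal aorta, 11 were higher (8.66% of all) and 7 lower (10.8%). Of those 11, 5 were of Timp3 and 3 of Serpine2, beside Adam11, Adam17 and Ctsa, and the 7 lower ones were of Mmp15, Mmp16, Adam19, Serpina1, Serpinb9, Ctsk and Ctsz. Thus 20.8% of the member probe sets were higher with birth in the aorta, and these came from 5 genes. The median log2 ratio of the 53 was 0.21 in the ductus and 0.17 in the aorta, against -0.02 and -0.03 for all probe sets.

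The 2 birth ratios share no array. They had the same sign for 39 of 53 member probe sets, 73.6%, and for 62.9% of all 12912. A ratio of 0, with both sides set to the floor, was counted as not the same sign, and such probe sets lower a share. The 53 include 5 probe sets of Timp3 and 4 of Serpine2. Among members, 1 probe set was at least 1.5-fold higher in both vessels, that of Timp3, 1 was lower in both, that of Mmp16, and 0 went opposite ways. Of all 12912 probe sets, 380 were higher in both vessels and 434 lower in both at that size. Another 39 were higher in the ductus and lower in the aorta, and 35 the reverse. The member counts are too small to be read as a difference from these.

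**Figure D3:**
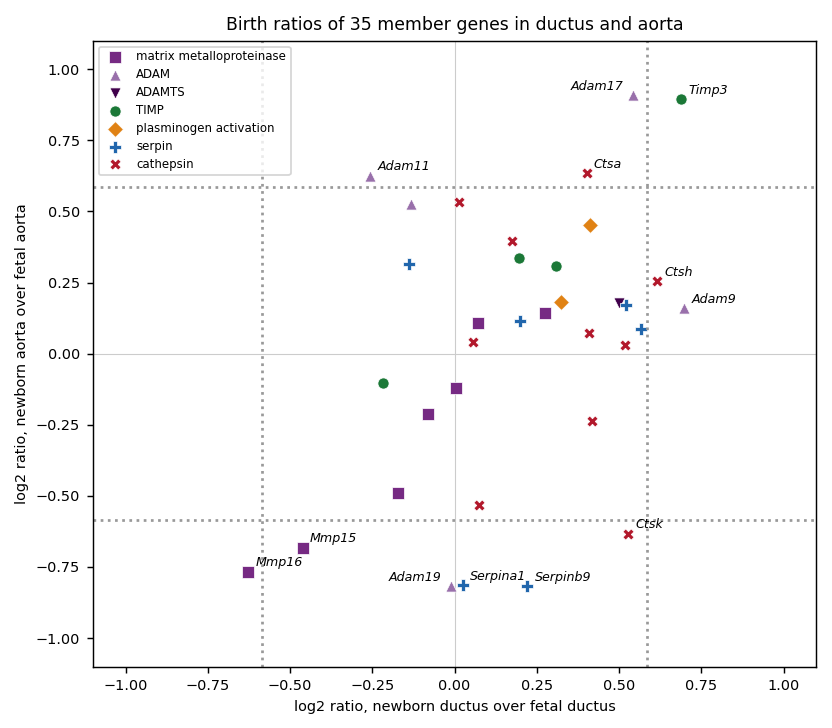
Log2 ratio of newborn over fetal ductus (x axis) against newborn over fetal aorta (y axis) for the 35 member genes that passed the filter, at their brightest probe set, with symbols for the gene family and dotted lines at 1.5-fold. Timp3 lay in the upper right corner and Mmp16 in the lower left, while Adam19, Serpina1 and Serpinb9 were lower in the newborn aorta with little difference in the ductus.

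Maternal oxygen went with few differences among members in the fetal ductus. In oxygen against fetal ductus 1 of 53 was at least 1.5-fold higher, that of Adamts2, and 3 were lower, all of Timp3, beside the 3.94% and 8.83% given above. Of those Timp3 log2 ratios, the ones at -0.71 and -1.04 had oxygen ductus set to the floor. Newborn against oxygen ductus showed 9 higher (14.5% of all) and 1 lower (12.5%). The 9 were the 5 of Timp3 and those of Adam9, Adam17, Mmp17 and Serpine2, and the lower one was of Mmp15. These 2 comparisons and that of newborn with fetal ductus share arrays, so their values stand side by side only. For Mmp15 and Adamts7, the oxygen ductus was near the fetal ductus (log2 ratios 0.27 and -0.13) and above the newborn one.

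In fetal ductus against fetal aorta 3 of 53 were at least 1.5-fold higher (4.64% of all) and 9 lower (5.23%), and the 9 were 17.0% of the members. They were of Ctsc, Ctsh, Ctsk, Ctss, Plaur, Serpina1, Serpinf1 and, by 2 probe sets, Serpine2, thus cathepsins and serpins apart from the receptor. The 15 cathepsin probe sets had a median log2 ratio of -0.29 and the 10 serpin ones -0.41, against -0.0053 for all. These came from 10 cathepsin and 6 serpin genes, and 4 of the serpin probe sets were of Serpine2. Probe sets of a gene are not separate measures, so the medians lean on such genes. Higher were Mmp16, Plat and a Timp3 probe set. Several marker sums were also lower in fetal ductus than in fetal aorta, at 5272 against 7797 for macrophages, 544.3 against 1829 for mast cells, 1415 against 2864 for liver and plasma, 39330 against 60590 for erythroid cells, 1428 against 2380 for platelets and 602.8 against 1588 for nerve and chromaffin cells. Sums were higher in fetal ductus for smooth muscle (66630 against 45380), heart (24400 against 9858), mesothelium (2994 against 2394), fat (1538 against 1290) and neutrophils (335.2 against 110.3). Fibroblast and endothelial sums were nearly even, at 107000 against 106000 and 6284 against 6651. The sums include markers that did not pass the filter, and only 3 of 11 liver and plasma and 3 of 8 mast cell markers passed. The part of any of these sums in the cathepsin and serpin differences was not tested. In newborn ductus against newborn aorta 5 were higher (6.64% of all) and 5 lower (6.34%), and the cathepsin and serpin medians were -0.16 and -0.31. Those higher were of Mmp16, Plat, Adam19 and, by 2 probe sets, Serpinb9, and those lower of Adam11, Ctsc, Timp3 and, by 2 probe sets, Serpine2. Of the 53, 34 had the same sign at both stages, 64.2%, against 52.5% of all probe sets. Ratios with both sides set to the floor were again counted as not the same sign.

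**Figure D4:**
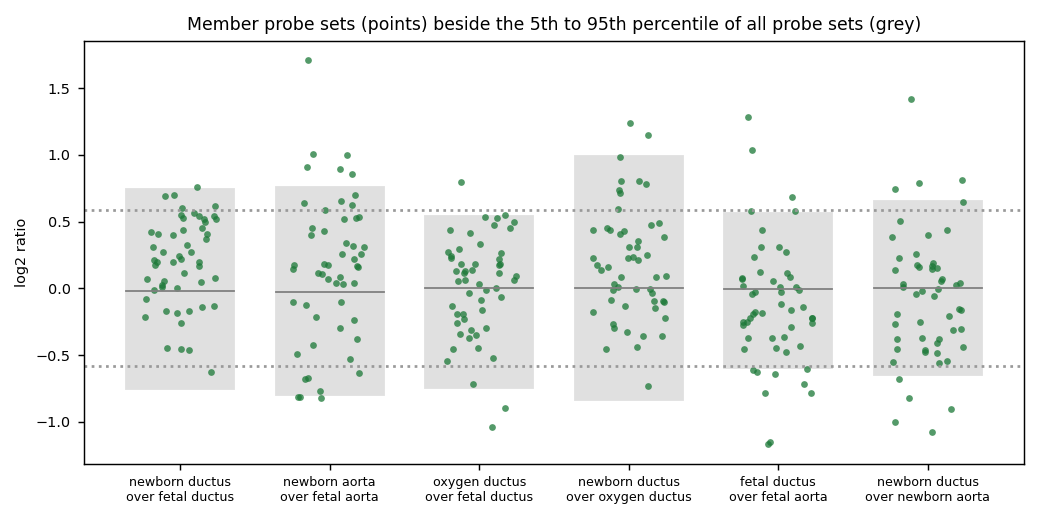
Log2 ratios (y axis) of the 53 member probe sets (points, spread sideways for legibility) in the 6 comparisons (x axis), with the 5th to 95th percentile of all 12912 probe sets in grey, their median as a grey line and 1.5-fold as dotted lines. Most members lay inside the grey range, and the points above it in newborn over fetal aorta include Timp3 probe sets.

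Of the 69 genes, 34 did not pass the filter at their brightest probe set, 12 serpins, 8 matrix metalloproteinases, 7 ADAMs, 4 cathepsins, 2 ADAMTS genes and Plau. In 29 of them every state was under the floor. The other 5 were Adam10, Adamts7, Mmp11, Mmp12 and Serping1. Adam10, a sheddase of Notch and other receptors, had 205 in newborn, 54.3 in oxygen and 164 in fetal ductus, and 136 in newborn and 187 in fetal aorta. Serping1, the C1 inhibitor of complement, had 165 in newborn, 124 in oxygen and 118 in fetal ductus, and 150.3 in newborn and 108 in fetal aorta, above the floor in both newborn vessels. The testis or placenta genes among the members, such as Adam2, Adam5, Adam18, Ctsj, Ctsm and Ctsq, were under the floor throughout. Adam8, Ctsc, Ctsf, Ctsz, Mmp17, Mmp23, Mmp24 and Serpinf2, the 8 passing genes whose signals are not listed, had log2 ratios between -0.55 and 0.53 at their brightest probe sets.

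Neighbouring genes of these pathways, listed for comparison, also gave few calls. Of 34 other proteases that passed the filter, limma called 0 with birth and 1 by vessel, Adamts1, higher in ductus than in aorta (adjusted p = 0.028), with 4325 in newborn, 1746 in oxygen and 1824 in fetal ductus, and 1268 in newborn and 694 in fetal aorta. The mast cell chymase Cma1 went the other way between vessels, with 327 in newborn, 109.5 in oxygen and 203 in fetal ductus, and 779.9 in newborn and 695 in fetal aorta, beside the mast cell carboxypeptidase Cpa3, with 272 in newborn, 73.3 in oxygen and 70.4 in fetal ductus, and 494 in newborn and 467 in fetal aorta. Tpsab1, a tryptase, had 185 in newborn, 66.1 in oxygen and 129 in fetal ductus, and 290.3 in newborn and 203 in fetal aorta. Tpsb2, another tryptase, had 703 in newborn, 538 in oxygen and 677 in fetal ductus, and 832 in newborn and 772 in fetal aorta. Its vessels were nearly even, with log2 ratios of ductus to aorta of -0.24 in newborns and -0.19 in fetuses. Mast cell markers Kit, Fcer1a, Ms4a2 and Hdc were under the floor in every state. Carboxypeptidase E, Cpe, was 2.53-fold higher in newborn ductus than in newborn aorta. Of the 34, 8 were at least 1.5-fold up and 2 down in newborn against fetal ductus, where 8.65% and 9.74% of all probe sets were. In newborn against fetal aorta 3 were up and 4 down, where 8.66% and 10.8% were. The list counts are by gene at the brightest probe set and the shares by probe set, so they are not like measures.

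Of 15 other inhibitors, 0 were called for either effect. Reck, a membrane-anchored inhibitor of matrix metalloproteinases, had 1196 in newborn, 1322 in oxygen and 1217 in fetal ductus, and 609.8 in newborn and 1709.8 in fetal aorta. Newborn aorta was the low sample, 2.80-fold lower than fetal aorta, while newborn and fetal ductus were nearly equal (log2 ratio -0.03). The coagulation inhibitor Tfpi had 678 in newborn, 398 in oxygen and 602 in fetal ductus, and 1204 in newborn and 1474 in fetal aorta, 2.45-fold lower in fetal ductus than in fetal aorta. Cst3 (cystatin C), the main extracellular inhibitor of cysteine cathepsins, had 4124 in newborn, 3871 in oxygen and 2351 in fetal ductus, and 5118 in newborn and 3381 in fetal aorta, 1.75-fold higher in newborn than in fetal ductus and 1.51-fold higher in newborn than in fetal aorta. Cast (calpastatin), the calpain inhibitor, was highest in newborn ductus, with 2493 in newborn, 916 in oxygen and 1480.1 in fetal ductus, and 1368 in newborn and 1458 in fetal aorta. Of 18 receptors and partners, 0 were called. Thbd (thrombomodulin), the thrombin receptor of endothelium, was 2.61-fold higher in newborn than in fetal aorta and 2.27-fold higher in fetal ductus than in fetal aorta, with 2248 in newborn, 1102 in oxygen and 1395 in fetal ductus, and 1603 in newborn and 615 in fetal aorta. Sparc, a collagen-binding matrix protein, had 26399 in newborn, 9871 in oxygen and 14670.0 in fetal ductus, and 19256 in newborn and 14934 in fetal aorta. For newborn against fetal ductus the 15 inhibitors had 4 genes up and 1 down by 1.5-fold or more, with a median log2 ratio of 0.17. The 18 partners had 4 up and 0 down, with a median of 0.07. Of all probe sets 8.65% were up and 9.74% down, a share by probe set and not by gene.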

How the data were processed

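RNA of 5 vessel states was hybridised to 3 Affymetrix rat chip types, 15 arrays. The deposited values were linear signal intensities. The submitters' processing notes name MAS5 for 4 arrays, all of chip A, and how the others were made is not given in the sources used here. The mean of each array after trimming 2% at each end lay between 495 and 498, so the arrays had been scaled before deposit, and they were not rescaled. Control probe sets were left out.

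From these intensities, log2 ratios of floored signals were formed for 6 pairs of states without a test. Vessel and birth effects were fitted per chip with limma 3.58.1 (R 4.3.3, lmFit and eBayes) as an additive model on 4 arrays, with 1 residual degree of freedom, prior degrees of freedom by chip (A to C) of 6.75, 13.63 and 7.42 and Benjamini-Hochberg adjustment over all passing probe sets of the chip. On simulated data it called 270 of 300 probe sets with a 2-fold birth change, 300 of 300 with a 4-fold one and 30 of 12496 unchanged ones. The simulated noise was Gaussian, additive and of the same size for all probe sets of a chip. The measured noise differed by signal. The changed probe sets had mean signals above 2 times the floor, so weaker signals were not tried. The simulated counts therefore do not show that 2-fold changes were absent where no call was made. In the measured data a Timp3 probe set on chip B with a birth effect of 1.08 was not called.

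Genes were named by array annotation, and 68 of the 69 member symbols were found in a current RefSeq table. Of the 69, 50 had a promoter in the RefSeq promoter table. Named with values were genes that passed the filter and lay at least 1.5-fold apart in any pair, and fixed genes usual in vessel remodelling. Members and lists were chosen with earlier results of these data known. Alternatives were other floors, quantile normalization, another filter, an intensity trend, adjustment over all chips and the mean over probe sets.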

Additional observations from a re-analysis of the deposited data

How the results depend on the processing

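With the floor at 0.5 of the median more probe sets were compared, 16973 of all in place of 12912. Shares of all probe sets at 1.5-fold under the other settings are not given here, so the counts show dependence on the setting only. At the lower floor, 2 member probe sets (not 1) were at least 1.5-fold lower in newborn against fetal ductus. In oxygen against fetal ductus 6 (not 3) were lower. In newborn against oxygen ductus 2 (not 1) were lower and 15 (not 9) higher. For newborn ductus against newborn aorta that floor gave 8 higher and 8 lower (not 5 and 5), and limma called 1 member lower with birth, Adamts7, whose newborn values were both set to that floor, so the call is no test of its size. With the floor at 2 times the median fewer probe sets were compared, and counts were 3 higher in newborn against fetal ductus, 7 higher and 3 lower in newborn against fetal aorta, 0 lower in oxygen against fetal ductus, 2 higher and 0 lower in newborn against oxygen ductus, 5 lower in fetal ductus against fetal aorta and 3 lower in newborn ductus against newborn aorta. Quantile normalization gave 3 higher in oxygen against fetal ductus and 5 higher in fetal ductus against fetal aorta, and limma called 2 members higher with birth, both of Timp3. With the filter on single arrays, 2 were lower in newborn against fetal and 2 lower in newborn against oxygen ductus. An intensity trend gave 1 member higher in ductus than in aorta, Mmp16. The cause of the changes under quantile normalization and the trend was not tested. The remaining counts stayed within 1.5 times. Over all probe sets, limma calls ran from 106 to 351 for higher and 87 to 272 for lower with birth, against 165 and 141, and from 2 to 53 and 3 to 25 for the vessel, against 13 and 3.

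Of the log2 ratios of named genes, 162 of 162 moved by less than the estimated standard deviation of a ratio with the lower floor, 162 of 162 with quantile normalization and 152 of 162 with the mean over probe sets. The 10 that moved further were of Mmp14, Serpine2, Timp1 and Timp3, and 0 of those at least 1.5-fold apart changed sign. No paired analysis was possible because each state had 1 array per chip type. Signals near the floor, such as those of Timp4, Adam17 and Adamts7, limit how firmly a fold can be read.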
